A study of Mus with 15 samples.

Results

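The genes described are 10 members of the Wnt ligand family, namely Wnt1, Wnt2, Wnt3, Wnt3a, Wnt5a, Wnt6, Wnt7a, Wnt7b, Wnt10a and Wnt10b, out of 49943 genes placed on chromosomes 1 to 19, X and Y, of which 21887 are protein-coding. They were chosen by name, and each was read in a window made of the gene body plus 5 kb on each side in the mm10 assembly. Lists of H2AK119ub1 (H2Aub) peaks were compared in 11 ChIPmentation libraries of mouse thalamus. In ChIPmentation, chromatin is immunoprecipitated and the Tn5 transposase inserts the sequencing adapters on the beads. WT mice gave 3 libraries after cocaine and 3 after saline, and cKO mice gave 2 and 3. WT mice carried the loxP allele of Maged1 (labelled Maged1 Loxp) with no deletion. In cKO mice Maged1 was deleted by a Cre driven by the Vglut2 promoter, so that cells of the thalamus that never express Vglut2 keep the gene. All mice were 2 to 4 months old and first received saline for 3 days. They then received 20 mg/kg cocaine or saline, intraperitoneally, for 5 days. Per the labels, 3 to 4 thalami were pooled in each sample. A pool holds neurons, glia and vascular cells together, so more cells with the mark and more mark per cell cannot be told apart.

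Wnt ligands are secreted, lipid-modified glycoproteins that bind Frizzled receptors on neighbouring cells, together with the coreceptors Lrp5 and Lrp6 or with Ror and Ryk. In the canonical branch this stabilises β-catenin, which acts with TCF and LEF factors on target genes, while other branches act on cell polarity and calcium. In the embryonic brain Wnt genes pattern the midbrain, the hippocampus and the thalamus, and in the adult they act on synapses and on blood vessels. H2Aub is placed on histone H2A by the Polycomb repressive complex PRC1, and genes of development, Wnt genes included, are well known Polycomb targets. The mark is associated with repression of transcription, and transcription itself was not measured in these libraries.

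Each library is represented by its peak list. A minimum sequencing depth is stated by the study, but the lists do not give the reads behind each library. The lists held 7271 to 80713 peaks covering 4.24 to 27.6 Mb. The libraries labelled cKO cocaine 1 and cKO saline 1 stood apart, with 54653 and 80713 mostly narrow peaks, against 7271 to 26055 in the other 9 lists. The main comparisons that use them are also given without them. WT cocaine lists covered 14.2 ± 3.50 Mb (SD, n = 3) and WT saline lists 8.35 ± 2.77 Mb (SD, n = 3). These lengths overlapped slightly, at 10.4 to 17.2 Mb and 5.55 to 11.1 Mb, but the mean moved with the treatment. Its part in the results below was not tested, and counts scaled to it are given for each main comparison between treatments. As for the tissue label, peak lists measure no expression and do not show the deletion of Maged1, and the 5 genes listed as typical of thalamic neurons carried peaks in 7 to 9 of the 11 lists.

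H2Aub was found at the 10 Wnt genes in almost every library. Wnt1, Wnt3, Wnt3a, Wnt5a, Wnt6, Wnt7a, Wnt7b, Wnt10a and Wnt10b had a peak in all 11 libraries, and Wnt2 had a peak in 10, with none in cKO saline 2. Among protein-coding genes 6.76% had a peak in all 11 libraries, 9.91% in at least 10, and 33.9% in none. Counting regions shared by at least 2 replicates of a group, all 10 genes were H2Aub+ in both WT groups and in cKO saline. After cocaine in cKO mice 9 were, Wnt2 being the exception because its peaks in the pair of libraries did not overlap. The same count took in 17.9% of protein-coding genes for WT mice given cocaine and 12.8% for WT mice given saline, and for cKO mice 12.9 and 11.3%.

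The genes differed in how much of their window lay under peaks. Averaged over the 11 libraries, Wnt10a (chr1:74792019-74804176), a gene known from tooth and hair development, had the longest coverage, 7063 bp or 31.9% of its window. Wnt7b (chr15:85535437-85581821), which acts with Wnt7a on the vessels of the central nervous system, had 6149 bp. Wnt1 (chr15:98789857-98793830), the ligand that marks the midbrain-hindbrain boundary, had 5732 bp, and because the gene is short this was 41.0% of the window. Wnt6 (chr1:74754342-74785322) had 5212 bp, Wnt3a (chr11:59248036-59290751), which is required for the hippocampus to form, had 4962 bp, and Wnt5a (chr14:28504543-28527448), the main ligand of the non-canonical branch, had 4452 bp. Wnt10b (chr15:98770712-98778206) followed with 4162 bp. These 7 genes ranked between 265 and 492 among the 21887 protein-coding genes by covered length. Lower down came Wnt7a (chr6:91363981-91411353) with 2530 bp at rank 872 and Wnt3 (chr11:103774175-103818021), a ligand needed for gastrulation, with 2188 bp at rank 1025. Wnt2 (chr6:17985474-18032772), best known from lung development, had 901 bp and rank 2376. The ranges of neighbours in this order overlapped across libraries. Without cKO cocaine 1 and cKO saline 1 the means ran from 683 bp at Wnt2 to 6984 bp at Wnt10a, with Wnt7b at 5515 bp and Wnt1 at 5505 bp. The median of the 10 genes was 4707 bp, against 35.7 bp over all protein-coding genes and 2771 bp over the 1479 with a peak in all 11 libraries.

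**Figure D1:**
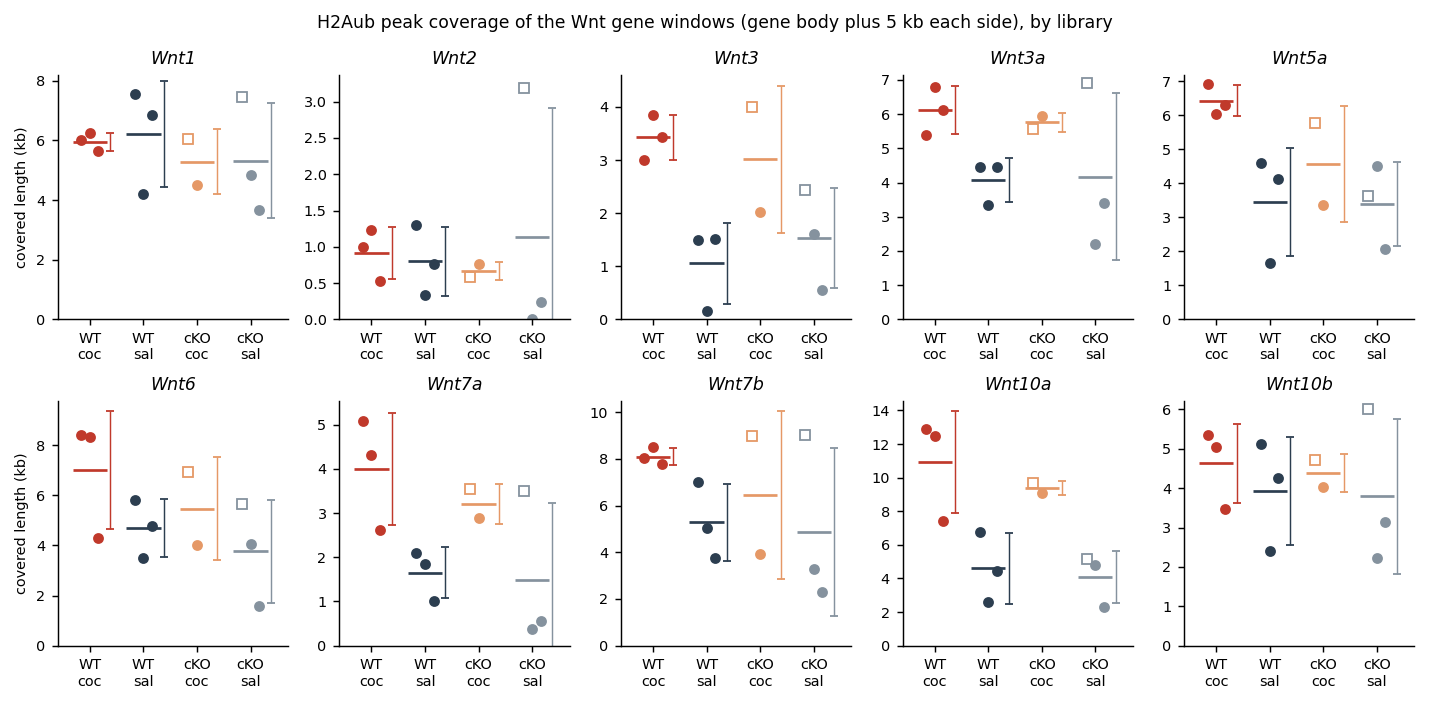
Length under H2Aub peaks (kb) in the window of each Wnt gene, 1 panel per gene and 1 point per library, with group means as horizontal lines and SD as error bars (cut at 0). Open squares are the cKO libraries numbered 1. WT cocaine points lie above all WT saline points for Wnt3, Wnt3a, Wnt5a, Wnt7a, Wnt7b and Wnt10a, and overlap them for the other 4 genes.

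Within the windows, peaks at 8 of the genes shared a stretch covered in 10 or 11 libraries, the exceptions being Wnt2 and Wnt3. At Wnt1 the gene itself held 60.3% of the covered length, and 86.9% of the gene was covered on average. The lower flank held 15.9% and the higher flank 23.8%, both with peaks in all 11 libraries. In the Wnt1 window 2 stretches adding up to 1151 bp were under a peak in all 11 libraries, the longer one chr15:98791490-98792096. At the neighbouring Wnt10b, 871 bp were covered in all 11 libraries (chr15:98776907-98777777), within the gene and close to its higher-coordinate end. The windows of Wnt10b and Wnt1 were separated by 1650 bp that held no peak in any library, so these adjacent genes carried separate domains.

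In the long genes Wnt3a, Wnt7a and Wnt7b most of the covered length lay at the higher-coordinate end. Summed over the libraries, the last 10 kb of the gene and the flank beyond held 78.3% of it at Wnt3a, 81.3% at Wnt7a and 88.6% at Wnt7b. Shorter peaks lay elsewhere in these genes, and at Wnt3a all 11 libraries had one between 15 and 18 kb from the lower-coordinate end. At Wnt3a 433 bp near the higher-coordinate end were covered in all 11 libraries (chr11:59290069-59290501), and at Wnt7b 78 bp just outside the gene were (chr15:85582127-85582204), in a part that the annotation also gives to the long non-coding gene AU022754. Wnt7a reached at most 10 libraries at any base, over 137 bp inside the gene. Its higher flank also held the long non-coding gene Gm30437.

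Wnt5a carried its H2Aub in the first part of the gene counted from the lower-coordinate end, where 434 bp were under a peak in 10 libraries. Wnt6 held a stretch of 400 bp covered in all 11 libraries inside its annotated span, chr1:74770812-74771211, about 14311 bp from the nearest gene end. Wnt10a lies next to Wnt6, and their windows shared 3304 bp that held a peak in 10 libraries and that also fall in the long non-coding gene Gm32099. Across Wnt10a the coverage was spread, with 16.7% in the lower flank, 49.8% in the gene body and 33.5% in the higher flank.

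Wnt3 and Wnt2 were the least regular. Most of the coverage assigned to Wnt3 (67.0%) was in its lower flank. That flank and the adjoining 1098 bp of the Wnt3 gene form a stretch of 6098 bp inside the annotated body of the adjacent Wnt9b. That stretch had peaks in all 11 libraries, with 166 to 3427 bp covered, whereas the rest of the Wnt3 window had peaks in 8 libraries, with 0 to 2138 bp. Peaks counted for Wnt3 can therefore not be separated from peaks of Wnt9b. No base of the Wnt2 window was under a peak in more than 5 libraries. The table of genes used here gives neither strand nor exons, so which end of a gene holds its start site is not known here, nor which parts are exons.

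**Figure D2:**
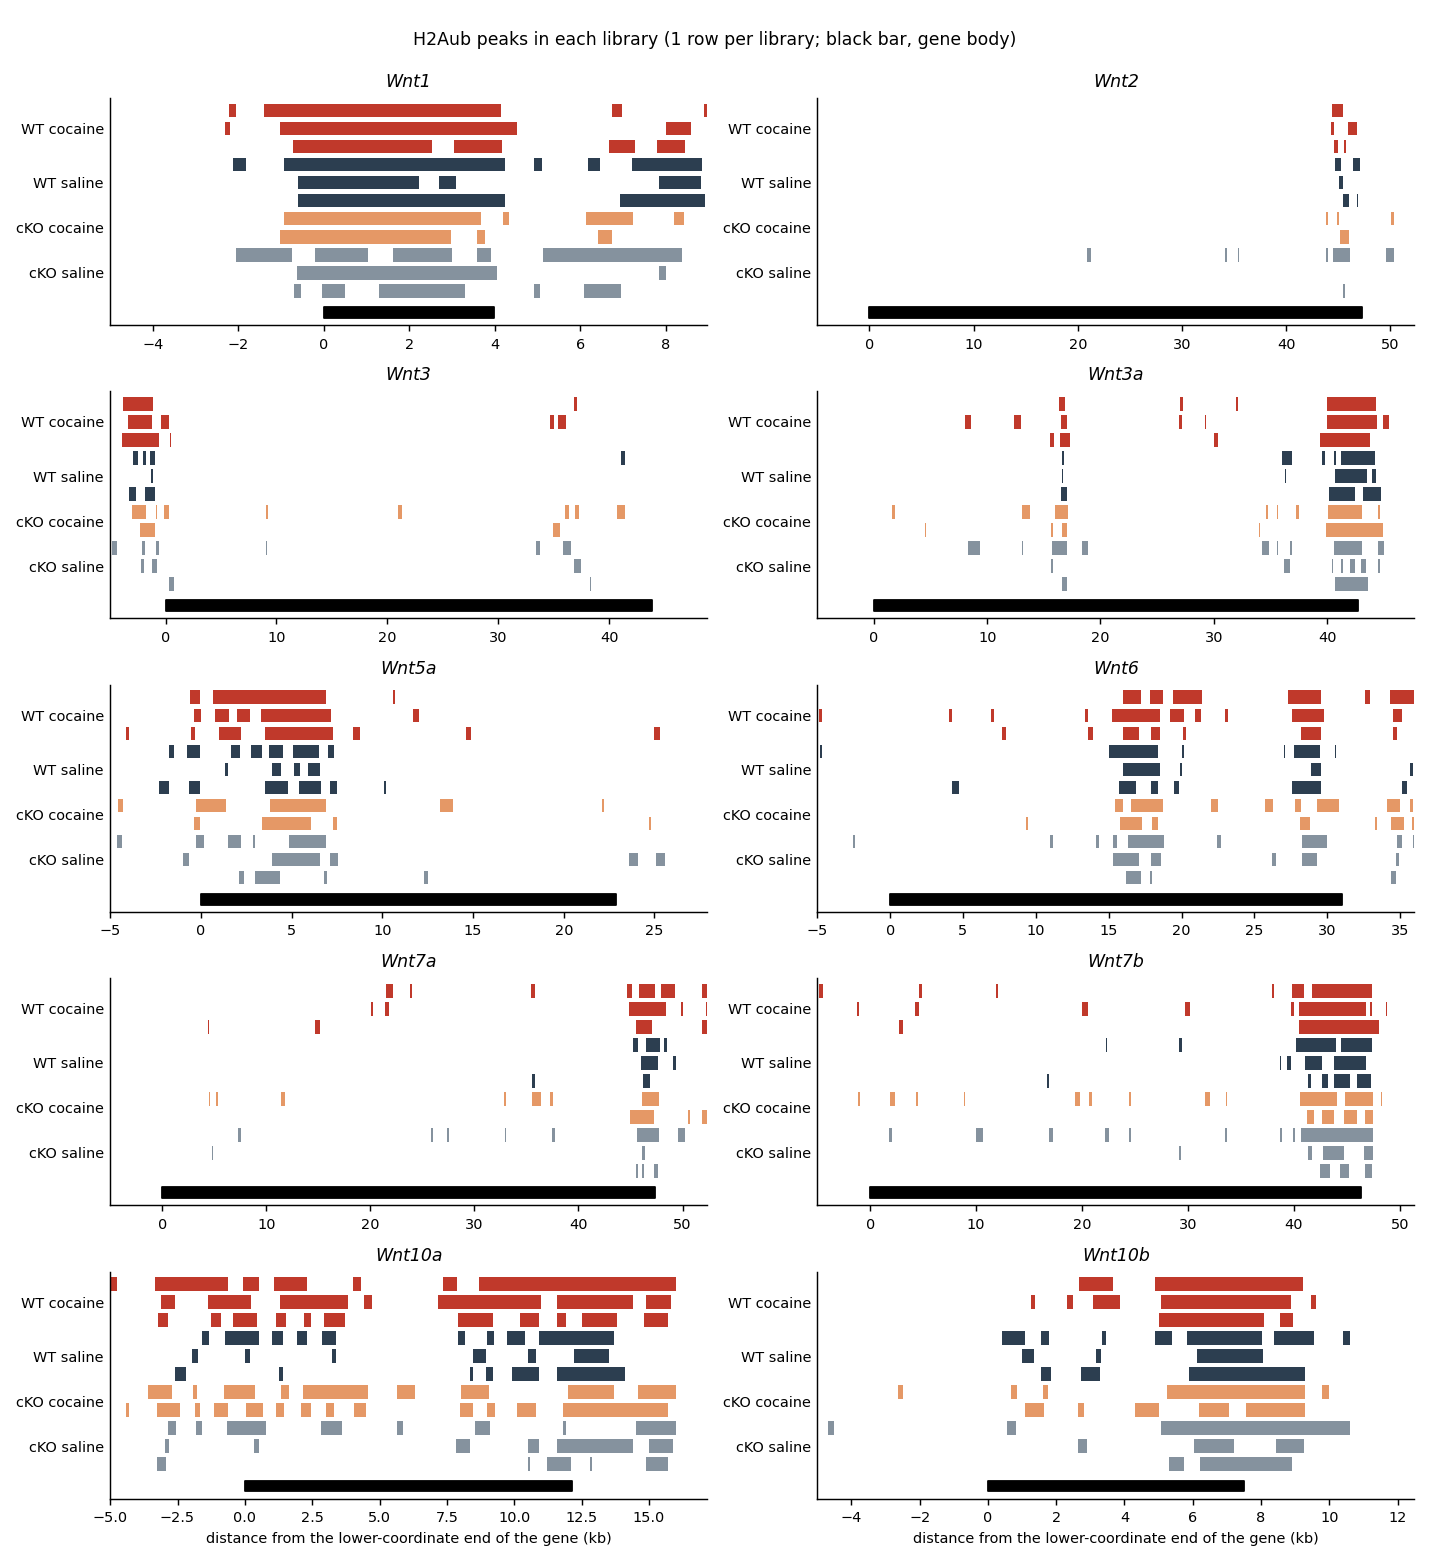
Position of every H2Aub peak in the windows of the 10 Wnt genes, with 1 row per library grouped by genotype and treatment, and the gene body as a black bar. The x axis gives the distance from the lower-coordinate end of the gene (kb). Peaks pile up over the whole of Wnt1 and reach into both of its flanks. They also gather at the higher-coordinate end of Wnt3a, Wnt7a, Wnt7b and Wnt10b, and in the lower flank of Wnt3.

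Peaks at the Wnt genes were wide. The widest peak in any of the 10 windows measured 2926 to 7439 bp depending on the library. The widest of all, 7439 bp, lay at Wnt7b in WT cocaine 3, and one of 7304 bp lay at Wnt10a in WT cocaine 1. Of the peaks at the Wnt genes, 17.2 to 40.0% in a library exceeded 1 kb, against 4.38 to 16.9% of all its peaks. The median fold enrichment over input of the Wnt peaks, 3.11 to 4.22 by library, was close to the median of the whole lists, 3.10 to 4.02.

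**Figure D3:**
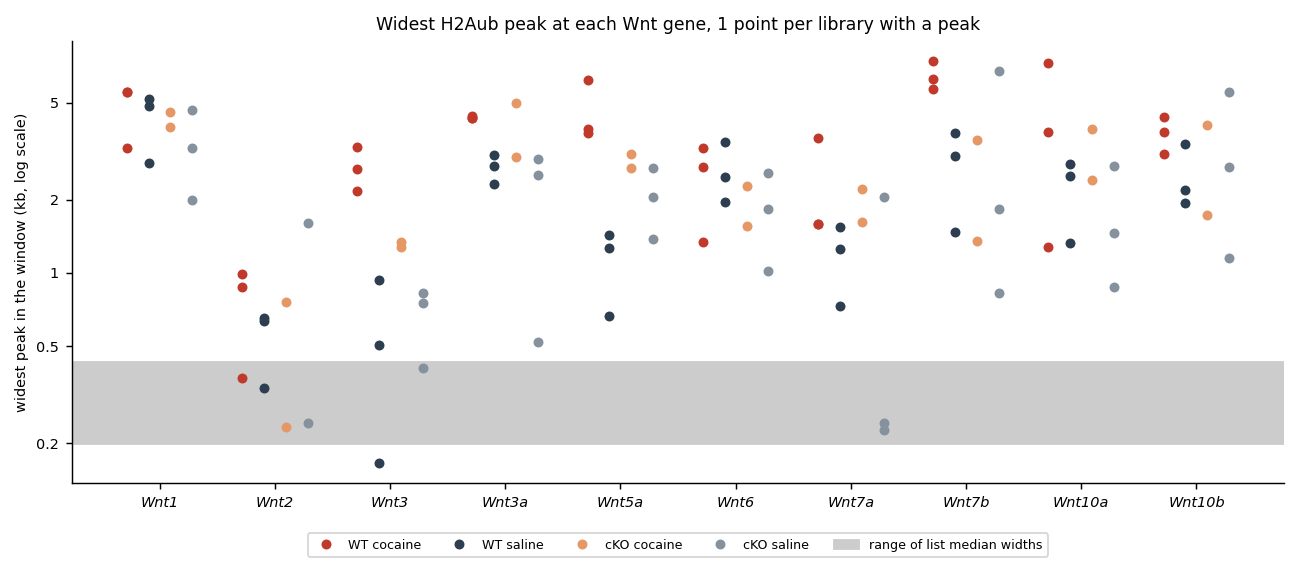
Width of the widest H2Aub peak at each Wnt gene (kb, log scale), 1 point per library with a peak, coloured by group. The grey band spans the median peak widths of the 11 lists, 198 to 429 bp, and all but a few points at Wnt2, Wnt3 and Wnt7a lie above it.

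To see whether repeated cocaine was accompanied by a change of H2Aub at these genes, WT cocaine was first compared with WT saline. Covered length was higher in every WT cocaine library than in every WT saline library at Wnt3, Wnt3a, Wnt5a, Wnt7a, Wnt7b and Wnt10a. It was lower without overlap at none. Of all 15123 genes with a peak in these libraries 13.1% were higher without overlap and 0.291% lower. Most of those genes have few peaks. Among the 2252 genes with a peak in all 11 libraries, the group to which 9 of the Wnt genes belong, 31.4% were higher. With 3 against 3 libraries the exact permutation test (two-sided) cannot give a p below 0.10, which each of these 6 genes reached (adjusted p = 0.744 over the 15123 genes). None therefore passed the 0.05 threshold.

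Wnt10a had 12895, 12499 and 7448 bp under peaks in the WT cocaine libraries and 6775, 2586 and 4435 bp in the WT saline libraries, a difference of 6349 ± 2132 bp (SE) and a ratio of 2.38. The lowest cocaine library was only slightly above the highest saline library. At Wnt3 the values were 2993, 3855 and 3427 bp after cocaine and 1488, 166 and 1508 bp after saline, which gave the highest ratio of the family, 3.25 (difference 2371 ± 509 bp, SE). In this gene the cocaine libraries were close together and all of them lay far above the saline libraries. That separation came from the 6098 bp inside the Wnt9b body, where cocaine libraries had 2666, 2884 and 3427 bp and saline libraries 1136, 166 and 1508 bp. In the rest of the Wnt3 window they had 327, 971 and 0 bp against 352, 0 and 0 bp, which overlapped. With 2 kb on each side the difference at Wnt3 was 1014 bp.

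The vascular and synaptic ligand Wnt7a was covered over 5084, 4307 and 2616 bp after cocaine and 2103, 1847 and 1004 bp after saline, a ratio of 2.42. Its paralog Wnt7b had 8030, 8490 and 7763 bp after cocaine and 7013, 5051 and 3766 bp after saline, a ratio of 1.53. In Wnt7b the cocaine libraries varied little, by 368 bp (SD, n = 3), and the saline libraries by 1635 bp (SD, n = 3). The non-canonical ligand Wnt5a had 6928, 6042 and 6303 bp against 4596, 1644 and 4135 bp, a ratio of 1.86. Wnt3a had 5396, 6805 and 6132 bp against 4451, 3329 and 4444 bp, a ratio of 1.5. For both genes the lowest cocaine library was well above the highest saline library.

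The other 4 genes overlapped between treatments. Wnt6 had 8419, 8335 and 4302 bp after cocaine and 5818, 3499 and 4753 bp after saline, so that WT cocaine 3 fell among the saline libraries. Wnt10b had 5360, 5049 and 3475 bp against 5113, 2412 and 4254 bp. Wnt1 had 6014, 6235 and 5639 bp against 7574, 4200 and 6846 bp, with a ratio of 0.961. It was the only one of the 10 genes whose mean was lower after cocaine. Wnt2 had 991, 1236 and 525 bp against 1297, 337 and 760 bp. Leaving out any single WT library kept the 6 genes apart, but the background moved too. The share of all genes tested that were higher was 18.2% without WT cocaine 1, 18.3% without WT cocaine 2, 25.0% without WT saline 1, 14.2% without WT saline 2 and 16.3% without WT saline 3. Among the genes with a peak in all 11 libraries it was, in the same order, 33.6, 35.9, 54.2, 32.9 and 40.3%. Wnt6 joined the 6 genes without WT cocaine 3. In that setting 28.3% of all genes tested and 59.6% of the genes with a peak in all 11 libraries were higher, so its 7 Wnt genes stand beside a larger background. Wnt1 became lower without overlap when WT saline 2 was left out, against 2.53% of all genes tested and 1.07% of those with a peak in all 11 libraries.

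The width and the number of peaks were also compared. The widest peak was wider in every cocaine than in every saline library at 5 genes, Wnt3, Wnt3a, Wnt5a, Wnt7a and Wnt7b, against 13.3% of all genes tested and 31.8% of the genes with a peak in all 11 libraries. At Wnt5a the widest peaks measured 6198, 3897 and 3750 bp after cocaine and 1433, 663 and 1267 bp after saline. At Wnt3 they measured 2666, 2170 and 3291 bp against 504, 166 and 932 bp. The number of peaks was higher without overlap only at Wnt7a, against 3.87% of all genes tested and 4.62% of the genes with a peak in all 11 libraries. Joining peaks less than 1 kb apart left Wnt3, Wnt7b and Wnt10a with more covered length without overlap, against 11.6 and 24.1% in these sets of genes. In a window of 2 kb on each side Wnt10a overlapped and the other 5 genes were higher, against 12.9 and 29.8%. With peaks kept at q up to 0.05 Wnt7a overlapped and 5 genes were higher, against 13.6 and 32.4%. At q up to 0.01 Wnt3 overlapped and Wnt6 was added, which made 6 genes against 10.8 and 25.4%.

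Summed over the 10 windows, with the shared stretch counted once, WT libraries were covered over 56601 ± 8154 bp after cocaine and 35529 ± 10685 bp after saline (SD, n = 3 each), a ratio of 1.59, and the groups did not overlap. The lists themselves were longer after cocaine, by a ratio of 1.70. Per Mb of list the Wnt windows held 4068 ± 537 bp after cocaine and 4288 ± 167 bp after saline (SD, n = 3 each), and these values overlapped. The median ratio of the 10 genes was 1.52, and that of the 2252 genes with a peak in all 11 libraries was 1.56. The 2 medians were close, and the Wnt genes were not set apart by them.

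When each gene was scaled to the covered length of its list, Wnt10a stayed higher without overlap, with a ratio of 1.43, while Wnt1 and Wnt10b became lower without overlap. Among all genes tested 6.78% were higher and 2.35% lower on this scale, and among those with a peak in all 11 libraries 7.95 and 9.77%. The scaled ratio remained above 1 at Wnt3, with 2.22, and at Wnt7a and Wnt5a, but it fell below 1 at Wnt3a and Wnt7b. When each list was instead cut to its 7271 strongest peaks, Wnt3, Wnt3a, Wnt5a, Wnt7b and Wnt10a were higher without overlap, against 9.82% of all genes tested and 25.3% of the genes with a peak in all 11 full lists. Wnt10a was the only one of the 10 genes with no overlap under all 3 of these settings.

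**Figure D4:**
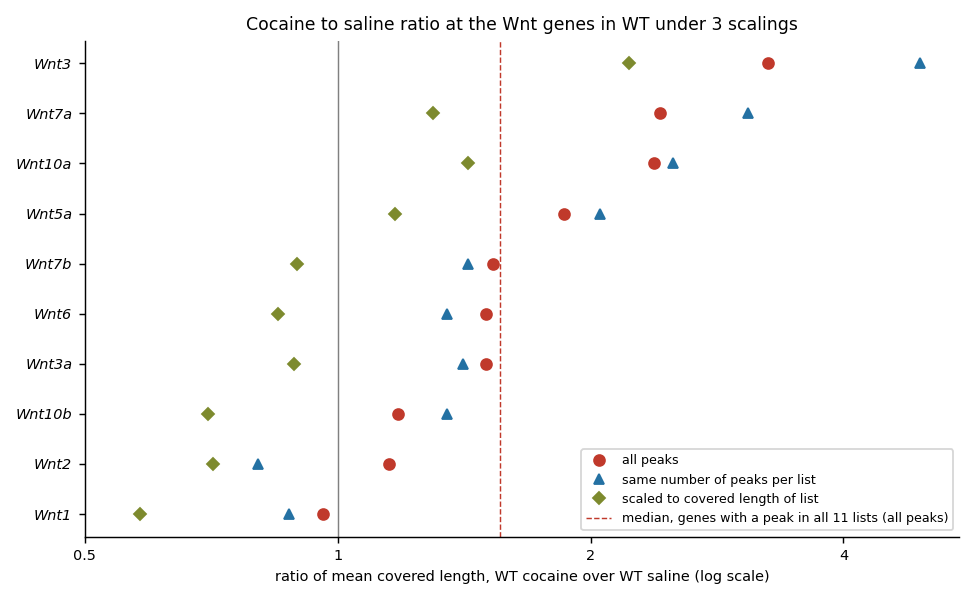
Ratio of mean covered length in WT cocaine over WT saline for each Wnt gene (log scale), from all peaks, from the same number of peaks per list, and scaled to the covered length of the list. The dashed line is the median ratio, 1.56, of the 2252 genes with a peak in all 11 lists. From all peaks 9 of the 10 genes lie above 1, and after scaling Wnt3, Wnt7a, Wnt10a and Wnt5a do.

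Some bases of the Wnt windows were covered by each of the 3 WT cocaine lists but by none of the WT saline lists. Counted once each, they added up to 4217 bp, against 244 bp for the reverse pattern, all of the latter at Wnt1. Over the genome the same counts were 603694 and 21723 bp. Wnt10a held 1589 bp of them, the longest stretch being the 811 bp of chr1:74806957-74807767 in its higher flank. Wnt5a held 1063 bp, Wnt3 574 bp, Wnt10b 456 bp, Wnt7a 316 bp and Wnt6 296 bp, part of which lies in the stretch that Wnt6 and Wnt10a share and is counted at both. In the cKO, 3759 of the 4217 bp were under a peak in at least 1 cocaine library and 1722 bp in both, while 2799 bp were covered in at least 1 saline library. Without the cKO lists numbered 1, cKO cocaine 2 covered 2363 bp and the other saline libraries 2115 bp. These bases, chosen from the WT libraries, were thus not empty in cKO mice. The share of such bases covered in cKO lists over the genome was not computed, so these counts have no background.

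In cKO mice the same comparison was made with 2 cocaine and 3 saline libraries, where the smallest exact permutation p is also 0.10. Wnt10a had 9686 and 9100 bp after cocaine and 5153, 4825 and 2295 bp after saline, a ratio of 2.3 and a difference of 5302 ± 949 bp (SE). It was the only Wnt gene higher without overlap (exact permutation p = 0.10, adjusted p = 1.00), against 3.87% of all 27076 genes tested and 16.8% of the genes with a peak in all 11 libraries. No Wnt gene was lower, against 0.118% of all genes tested. Wnt7a had 3535 and 2889 bp against 3502, 370 and 569 bp, and Wnt3 had 3992 and 2029 bp against 2443, 1608 and 561 bp. In both, cKO saline 1 was the highest of the saline libraries and made the groups overlap.

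The number of higher genes in cKO mice rested on single libraries, while Wnt10a was higher whichever library was left out. It was the only one without cKO cocaine 1, cKO saline 2 or cKO saline 3. In these settings 9.25, 5.29 and 3.96% of all genes tested were higher. Among the genes with a peak in all 11 libraries the shares were 35.8, 28.6 and 17.0%. Without cKO saline 1, which had 80713 peaks, 7 genes were higher without overlap (Wnt2, Wnt3, Wnt3a, Wnt7a, Wnt7b, Wnt10a and Wnt10b), against 24.6% of all genes tested and 59.9% of the genes with a peak in all 11 libraries. With cKO cocaine 2 left out there were 5, namely Wnt3, Wnt5a, Wnt6, Wnt7a and Wnt10a, against 32.2 and 41.1%. The widest peak was wider without overlap at Wnt3, Wnt3a and Wnt5a, against 5.16% of all genes tested and 19.8% of those with a peak in all 11 libraries, and peaks were more numerous without overlap at Wnt10a and Wnt10b, against 1.45 and 3.64%. Scaled to the covered length of the list Wnt7a alone was higher, against 4.68% of all genes tested and 7.55% of those with a peak in all 11 libraries. With the same number of peaks per list none was, against 1.70 and 2.22%. Summed over the windows, coverage was 47082 ± 10812 bp after cocaine (SD, n = 2) and 33249 ± 17161 bp after saline (SD, n = 3), and the groups overlapped. The median ratio of the 10 genes was 1.36, the same as the median of the 2252 genes with a peak in all 11 libraries.

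Whether cocaine acted differently in WT and cKO mice was tested on the difference of the differences, by exact permutation of treatment within genotype (200 arrangements, two-sided, smallest p 0.005). No Wnt gene had a p under 0.05, with p values of 0.400 to 0.970 over the 10 genes, against 0.217% of the 28090 genes tested, of which 0 passed after adjustment. At Wnt10a coverage was longer after cocaine by 6349 bp in WT and by 5302 bp in cKO, a difference of -1047 bp (permutation p = 0.830, adjusted p = 1.00). At Wnt5a, which had the lowest p, the cocaine effect was 2966 bp in WT and 1178 bp in cKO (permutation p = 0.400, adjusted p = 1.00). With the same number of peaks per list, Wnt7b had an exact permutation p of 0.0350 (adjusted p = 1.00), against 1.33% of genes with a p under 0.05. In that setting the library cKO cocaine 1 had no peak left at Wnt7b, nor at Wnt1, Wnt3, Wnt6, Wnt7a and Wnt10a. The design has few libraries, and these p values do not show that the genotypes responded alike.

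After saline, cKO and WT mice overlapped at all 10 genes, while 0.627% of the 25340 genes tested were higher in cKO without overlap and 0.600% lower. Ratios of cKO to WT ran from 0.802 at Wnt6 to 1.46 at Wnt3. At Wnt1, for example, cKO libraries had 7451, 4841 and 3681 bp and WT libraries 7574, 4200 and 6846 bp. Within cKO saline the library numbered 1 was the highest at 9 of the 10 genes, Wnt5a being the exception. With it left out, Wnt2, Wnt7a and Wnt7b were lower in cKO without overlap, against 8.60% of all genes tested and 19.6% of the genes with a peak in all 11 libraries. Without cKO saline 3 Wnt3 was higher, against 6.30 and 9.01%.

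After cocaine, all 10 genes had a lower mean in cKO than in WT, with ratios of 0.712 to 0.945 and a median of 0.830, against 0.899 for the 2252 genes with a peak in all 11 libraries. At Wnt5a the groups did not overlap, with 5771 and 3372 bp in cKO and 6928, 6042 and 6303 bp in WT, a difference of -1853 ± 1228 bp (SE, exact permutation p = 0.10, adjusted p = 0.678). Of the 22058 genes tested 3.21% were lower without overlap, and 13.9% of those with a peak in all 11 libraries. No Wnt gene was higher without overlap, against 5.88% of the genes tested. The WT cocaine libraries entered both this comparison and the one with WT saline. Without cKO cocaine 1 there were 5 lower genes, Wnt1, Wnt3, Wnt5a, Wnt6 and Wnt7b, against 19.7% of all genes tested and 39.9% of those with a peak in all 11 libraries. Without cKO cocaine 2 Wnt5a was lower, against 6.36 and 33.7% in these sets of genes, while Wnt3 and Wnt7b were higher, against 65.1 and 25.8%. Leaving out WT cocaine 3 gave 6 lower genes (Wnt2, Wnt5a, Wnt6, Wnt7a, Wnt10a and Wnt10b), against 8.75% of all genes tested and 33.5% of those with a peak in all 11 libraries. Leaving out WT cocaine 1 gave Wnt3a and Wnt5a, against 4.63 and 15.1%. The widest peak was narrower in cKO without overlap at Wnt3, Wnt5a and Wnt7b, against 4.06% of the genes tested and 16.8% of those with a peak in all 11 libraries. Scaled to the covered length of the list, Wnt5a, Wnt6 and Wnt7b were lower in cKO, against 4.49 and 16.3%. With the same number of peaks per list Wnt1, Wnt3, Wnt5a and Wnt7b were, against 10.1 and 29.6%. That setting left cKO cocaine 1 with 264 bp at Wnt5a and 0 bp at the other 3 of them. Wnt5a was lower in each of these settings, but it overlapped when peaks were kept at q up to 0.05 or 0.01.

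The rest of the pathway was read the same way, from lists of named genes. Over all protein-coding genes 12.8% had a peak in at least 9 libraries, 33.9% had none in any, and 60.2% had none in the 9 lists other than cKO cocaine 1 and cKO saline 1. The counts of genes higher in WT cocaine stand beside the background given above, 13.1% of all genes tested and 31.4% of those with a peak in all 11 libraries. For counts scaled to the covered length of the list, 6.78% of all genes tested were higher and 2.35% lower. Among those with a peak in all 11 libraries these scaled shares were 7.95 and 9.77%. Of the other 9 Wnt genes 7 had a peak in all 11 libraries and all 9 in at least 9, with a median covered length of 2455 bp. Wnt11, which guides cell movements in the embryo, had a mean covered length of 5957 bp, Wnt8b, a gene of the embryonic forebrain, 5904 bp, and Wnt9b 3656 bp. In WT mice 5 of these 9 were higher after cocaine without overlap, among them Wnt11 (7625 ± 491 against 4683 ± 1491 bp), Wnt8b (9612 ± 2141 against 5259 ± 1684 bp) and Wnt9b (6872 ± 1460 against 2350 ± 875 bp, SD, n = 3 each). Wnt9b shares part of its peaks with the Wnt3 window. Scaled to the covered length of the list, 2 of the 9 were higher, Wnt9a and Wnt9b, and 1 was lower.

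Of the 3 genes that act on the lipid or the secretion of Wnt proteins, 2 had no peak, as had 33.9% of protein-coding genes. These were Porcn, which attaches the lipid, and Wls, which carries Wnt proteins to the cell surface. Notum, the enzyme that removes the lipid outside the cell, had a peak in all 11 libraries. Among 15 receptor genes 9 had a peak in at least 9 libraries, led by Ror2 (4016 bp) and Fzd10 (3409 bp). In WT mice 3 receptor genes were higher after cocaine without overlap, namely Fzd2, Fzd7 and Lrp5. Lrp5 had 3676 ± 527 bp after cocaine and 1309 ± 543 bp after saline (SD, n = 3 each), and it was the only one of the 3 that stayed higher when scaled. By contrast its relative Lrp6 had peaks in 2 libraries, which were cKO cocaine 1 and cKO saline 1.

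Genes of secreted inhibitors were often marked, 10 of 12 in at least 9 libraries. Sost, an antagonist that binds Lrp5 and Lrp6, had a mean of 4602 bp, and Sfrp1, which binds Wnt proteins directly, had 3009 bp. Sfrp1 and Dkk2 were higher after cocaine without overlap in WT mice, but when scaled none of the 12 was higher and 1 was lower. The scaled shares were 6.78 and 2.35% of all genes tested, and 7.95 and 9.77% of those with a peak in all 11 libraries. Of the 9 genes of R-spondins, their Lgr receptors and the ligases Znrf3 and Rnf43, 6 had a peak in at least 9 libraries, and none was higher in WT cocaine without overlap.

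Of the 9 intracellular transducers none had a peak in as many as 9 libraries and 3 had none in any, which is close to the shares over protein-coding genes. In the 9 lists other than cKO cocaine 1 and cKO saline 1 only Axin1, a scaffold of the β-catenin destruction complex, had any, in 4 lists. The genes of β-catenin (Ctnnb1) and of its kinase Gsk3b had peaks in those 2 cKO lists alone. All 4 TCF and LEF genes had a peak in at least 9 libraries, with Lef1 highest (4782 bp) and Tcf7 higher in WT cocaine without overlap. Among 9 known targets of the pathway, 6 had a peak in at least 9 libraries, led by Sp5 (4916 bp) and the cyclin gene Ccnd1 (4495 bp), and Ccnd1 was higher in WT cocaine without overlap. The targets include Notum and Lgr5, which were already counted in the lists above. Likewise Tcf7l2 is both a TCF gene and one of the genes listed as typical of thalamic neurons. When scaled, no gene of the factors or of the targets was higher, against 6.78 and 7.95% in the 2 background sets. In each list 1 was lower, against 2.35% of all genes tested and 9.77% of those with a peak in all 11 libraries. No test was made between these lists.

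**Figure D5:**
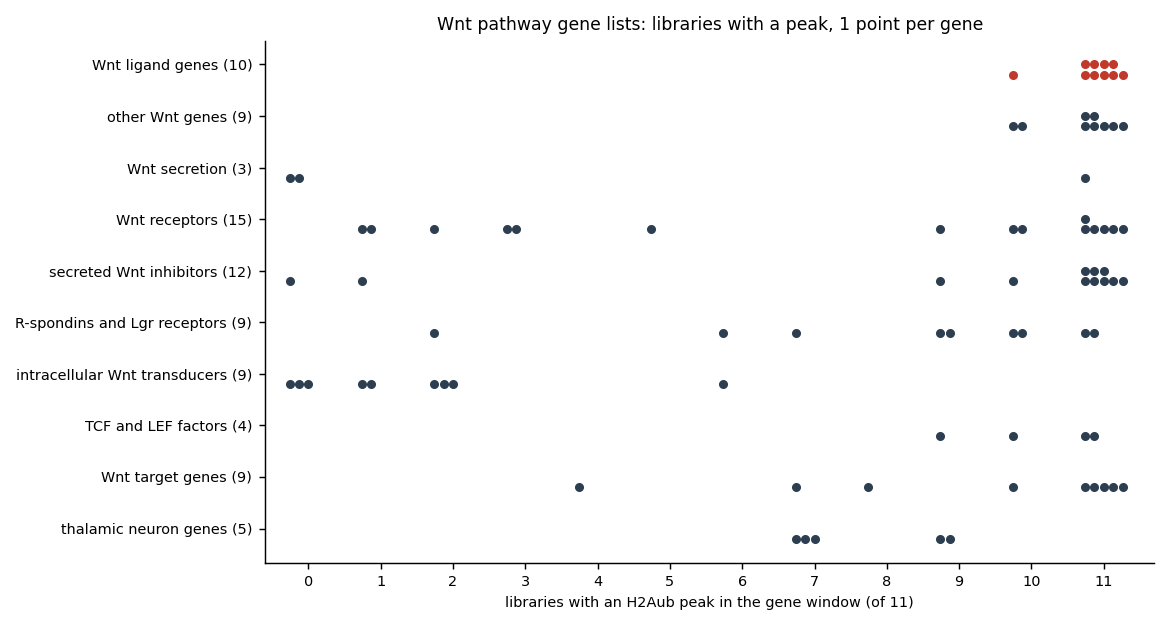
Number of libraries (of 11) with an H2Aub peak in the gene window, 1 point per gene, for the 10 Wnt ligand genes (red) and 9 other lists of genes of the pathway and of thalamic neurons, with the number of genes of each list in parentheses. All 10 ligand genes sit at 10 or 11 libraries, and none of the 9 intracellular transducers reaches 9.

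Among the protein-coding genes whose covered lengths over the 11 libraries were closest to those of Wnt10a were the homeobox gene Dlx3 and Plcb2, which encodes a phospholipase C. Their Euclidean distances to Wnt10a were 6049 and 6226 bp. In WT mice Dlx3 had means of 9298 bp after cocaine and 5540 bp after saline, next to 10947 and 4599 bp at Wnt10a. In cKO mice it had 7490 and 5461 bp, next to 9393 and 4091 bp.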

How the data were processed

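H2Aub was profiled by ChIPmentation in 11 libraries of pooled mouse thalami, and 4 input libraries served the authors as control. As the labels and the study's methods state, reads were mapped to mm10 with Bowtie2 (2.3.4.1) and broad peaks were called with MACS2 (2.1.1.20160309.3), 1 list per library with no pooling. The lists deposited by the authors give a whole-number score, a fold enrichment over input (a linear ratio), and for each peak its p and q as −log10 values. They give no read counts, so the depth of each library is not known and was not corrected for, and no interval on a covered length was computed. The highest q was 0.0997, above the limit of 0.05 in the study's methods, and all peaks were used.

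Peaks were joined by position to gene bodies plus 5 kb from a GRCm38.p6 gene table (mm10 coordinates), which holds no strand, exons or sequence, so none is shown. Covered length, widest peak and number of peaks were computed per library in Python (3.11.15, numpy 2.4.6, pandas 2.3.3), with code tested on simulated data. Group differences were tested per gene by exact permutation over libraries, two-sided, with Benjamini-Hochberg adjustment over all genes with a peak. "Without overlap" means that every library of one group exceeded every library of the other. Replicates are separate pools per the labels.

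The Wnt genes and the other lists were chosen with earlier results of these data known. Named genes were the 10 Wnt genes and, in each other list, up to 4 by mean covered length among those with a peak in at least 9 libraries or without overlap in WT. Wnt9a, Fzd7, Dkk2, Axin1, Ctnnb1, Gsk3b, Lrp6, Porcn and Wls fall outside this rule and were named after their values were seen. The 3 genes closest to Wnt10a by Euclidean distance over the 11 libraries were taken, of which 1 is not reported here. Alternatives were q limits of 0.05 and 0.01, the same number of peaks per list, other windows, a minimum of 200 bp, peaks joined across 1 kb, leaving out libraries, a replicate block and scaling to the covered length of the list, the last chosen after seeing the data.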

Additional observations from a re-analysis of the deposited data

How the results depend on the processing

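The depth of each list is not known, so longer lists could not be told apart from more mark, and the exact permutation test between 2 groups could not pass 0.05 at this number of libraries. Of the values for single genes under the alternatives, 573 stayed within the spread between libraries, 35 moved and 2 reversed. Only genes without overlap in the main comparison could count as reversed, so other changes of sign are among the rest. Leaving out a single library cannot move a difference beyond that spread, so the 573 do not measure stability. In WT, cocaine against saline, 6 Wnt genes were higher without overlap, and 3 with peaks joined across 1 kb. Scaled to the covered length of the list (chosen after seeing the data), 1 was higher and 2 were lower, the summed difference turned to -2792 bp, and Wnt3a and Wnt7b turned to -724 and -885 bp. In cKO, cocaine against saline, 1 gene was higher. At q up to 0.01 there were 2, against 1.74% of all genes tested and 11.4% of those with a peak in all 11 libraries. With the same number of peaks per list there were 0. Without both cKO lists numbered 1 there were 7, against 64.9 and 77.0% in these sets of genes. The summed difference between cKO cocaine and cKO saline was -1622 bp with the same number of peaks and -3845 bp when scaled. With the same number of peaks, 1 Wnt gene was H2Aub+ in cKO cocaine and 1, Wnt7b, had a difference between genotypes at an unadjusted exact permutation p of 0.0350 (adjusted p = 1.00, no call). That setting left cKO cocaine 1 with 0 bp at 6 of the 10 genes. For cKO against WT after saline, 3 genes were lower without both cKO lists numbered 1. For cKO against WT after cocaine, 1 was lower, but 0 at q up to 0.05, against 3.32 and 14.2% in these sets of genes. There were 4 with the same number of peaks (summed difference -28750 bp), 5 without cKO cocaine 1 and 3 when scaled.

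Leaving out 1 library at a time gave 6 to 7 higher and 0 to 1 lower genes in WT, and 1 to 7 higher genes in cKO. It gave 0 to 1 higher and 0 to 3 lower genes for cKO against WT after saline, and 0 to 2 higher and 1 to 6 lower after cocaine. H2Aub+ Wnt genes in cKO saline numbered 8 to 9. Where 1 library was left in a group, it was assumed to vary like the others and no test was made. Whether the replicate numbers pair the WT libraries could not be decided with so few of them. Deviations of same-numbered WT libraries correlated by 0.411, 0.212 and -0.263, and those of different-numbered ones by -0.662 to 0.614. In cKO mice, with 2 shared numbers, deviations of same-numbered libraries correlated by 0.675 and 0.712, where both lists numbered 1 stood apart. Between genotypes they correlated by 0.403, -0.238 and -0.186 after saline and by -0.125 and -0.306 after cocaine. With the number as a replicate block, each same-numbered pair had to differ the same way. The WT count then stayed at 6, against 21.8% of all genes tested and 55.2% of the genes with a peak in all 11 libraries. In cKO mice 3 genes were higher, against 10.1 and 43.4% in these sets of genes, and 1 was lower, against 5.31 and 8.84%. For cKO against WT 6 were lower after cocaine, against 42.6%, and none after saline.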
